A study of Mus musculus with 4 samples.

Results

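The kinesin family of motor protein genes was followed in a mouse large pre-B cell line. Its members were all rows of the count files whose gene symbol began with Kif followed by a digit or the letter c, which took 42 of 23420 rows. By their known roles, 14 were grouped as mitotic kinesins, 17 as transport kinesins and 10 as other kinesins (cilium, Hedgehog signalling, dual or atypical roles), and the remaining row was the pseudogene Kif4-ps. Both groups of the study used the same Irf4/8-/- line, which lacks 2 interferon regulatory factors, grown on OP9 stroma with 10 ng/ml of interleukin 7. A retrovirus with a GFP reporter delivered a hairpin directed at Myb mRNA (shMyb) or at luciferase mRNA as the control (shLuc). GFP+ cells were sorted after 72 hours, and each group had 2 RNA-seq libraries, from duplicate sets of 12 wells. Because 1 line supplied every library, the tests weigh differences against how far duplicate transductions of it vary, and fewer cells of a type and less RNA per cell cannot be told apart in such bulk samples.

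Kinesins are ATP-driven motors that move along microtubules. Mitotic kinesins are made mainly by dividing cells, where they separate spindle poles, move and align chromosomes and organise the central spindle for cytokinesis. Transport kinesins carry vesicles, organelles and protein complexes, and many are best known from neurons. Large pre-B cells are a dividing stage of B cell development that depends on interleukin 7.

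Libraries held 36573743 to 44682954 counts. The Myb transcript stood at 616 and 600 CPM (counts per 1e6 of the scaled library total) for shLuc and 617 and 639 CPM for the libraries labelled shMyb, a log2 fold change of 0.05 (SE 0.04, edgeR adjusted p = 0.283). Myb was called higher in shMyb with library totals (0.11), with the expression trend removed (0.16) and with the length and GC trends removed (0.10). The hairpin's target was therefore not lower as counted, so every direction given here rests on the group names alone. The B-lineage markers (10 of 10 tested) summed to 5104 to 5234 CPM in every library. Singly, 5 of them were called higher and 4 lower (90% called, beside 62.2% of all tested genes). Of other cell types' markers, the T cell genes Cd4, Cd8a and Cd8b1, the neuronal genes Snap25 and Nefl and the myeloid gene Elane had no count in any library. Summed T cell markers were at 99.0 and 102 CPM with shLuc, against 46.2 and 47.3 CPM with shMyb, nearly all from Lat (96.2 and 99.1, then 42.8 and 44.3 CPM), and Cd3e, Cd3d and Cd3g had 0 to 2 counts per library. Summed neuronal markers were at 169 and 171 against 117 and 108 CPM, nearly all from the tubulin gene Tubb3. Summed multiciliated cell markers were at 19.0 and 17.4 against 37.4 and 44.2 CPM, nearly all from Rsph1 (17.4 and 15.7, then 35.5 and 42.3 CPM), the 1 called gene of 4 tested. Summed myeloid markers were at 3.63 and 3.17 against 6.26 and 7.24 CPM, with 3 of 4 tested called higher. Summed stromal markers were at 50.4 to 69.3 CPM and overlapped between the groups, but 2 of 10 tested rose (Sparc 0.42, Postn 1.01) and 2 fell (Fn1 -1.52, Cxcl12 -1.80). Their part in the kinesin values was not tested.

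The kinesin set of these cells was dominated by mitotic members. Of the 42 rows, 37 had a count, and 32 had enough counts to be tested (13 mitotic, 13 transport and 6 other). Kif1a, Kif2b, Kif6, Kif27 and Kif4-ps had no count in any library. A gene at 0 could still have stood at up to 3 counts, which is 0.0688 to 0.0799 CPM depending on the library (counting error only). Another 5 rows were detected but untested. Their counts in shLuc 1, shLuc 2, shMyb 1 and shMyb 2 were 7, 8, 7 and 20 for Kif21a, 4, 5, 2 and 6 for Kif5a, 7, 3, 5 and 0 for Kif5c, 2, 2, 3 and 3 for Kif26b, and 1, 0, 0 and 2 for Kif26a. The neuronal motors Kif1a, Kif5a and Kif5c were thus at or near 0, while Kif5b, the broadly expressed conventional kinesin heavy chain, was among the most abundant members.

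Per length of exon, Kif11, the motor that pushes spindle poles apart, stood highest, at 64.8 ± 0.413 CPM per kb (SD, n = 2) in shLuc and 66.1 CPM per kb in shMyb. Kif20a, a cytokinesis motor, followed at 50.6 ± 0.960 CPM per kb in shLuc, then the chromosome arm motor Kif22 at 44.6 ± 0.219 and Kif5b at 37.6 ± 0.137 CPM per kb. These 4 levels differed from each other by more than their spread. Further down, Kif20b (19.9 ± 0.946 CPM per kb) and Kif23 (19.4 ± 0.210) did not differ beyond theirs, and neither did Kifc5b (7.72 ± 0.317) and Kif14 (7.71 ± 0.259). The median over tested members was 22.5 to 22.6 CPM per kb for mitotic and 5.22 to 5.25 for transport kinesins in the shLuc libraries. Kif21b, a motor of the transport group, stood at 14.3 ± 0.547 CPM per kb in shLuc, below Kif20b and Kif23. In shMyb it was at 21.9 ± 0.590, where it did not differ beyond the spread from Kif20b (21.6 ± 2.27) or Kif23 (21.6 ± 0.746). These spreads are between libraries. They do not cover the exon length, taken over all annotated exons of a gene, so the order of genes depends on that choice.

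**Figure D1:**
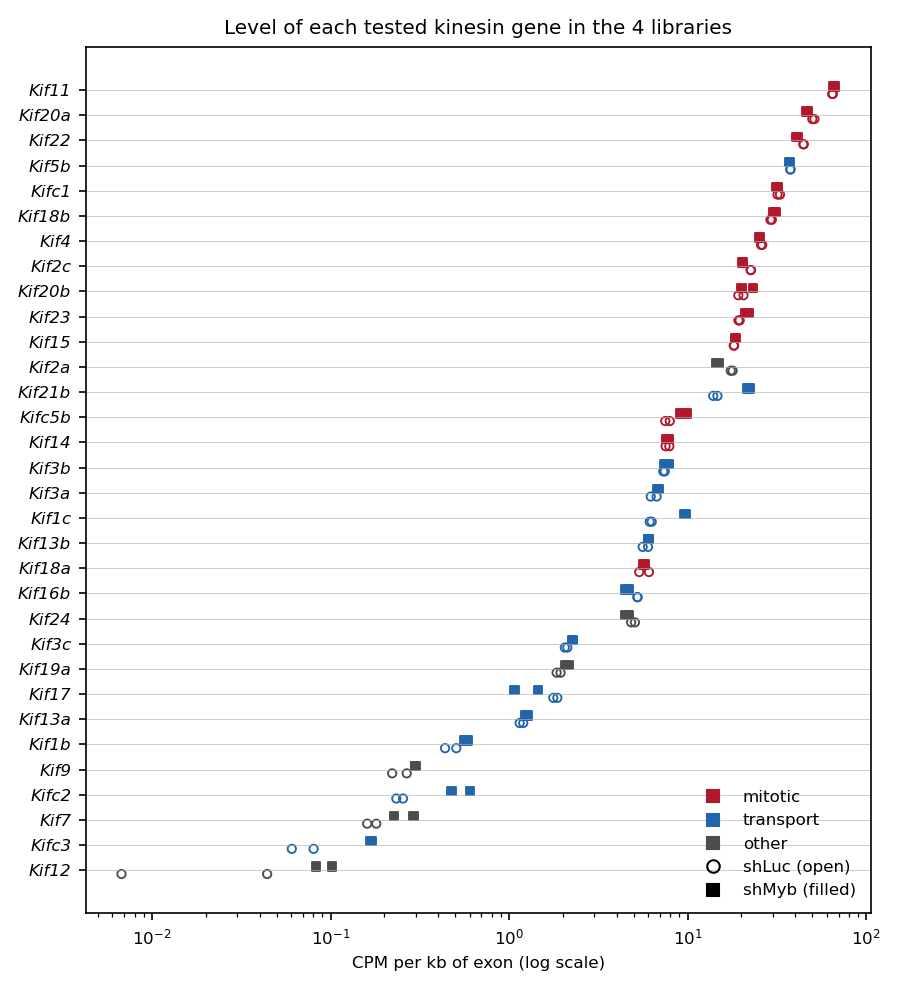
Level of each of the 32 tested kinesin genes, in CPM per kb of exon on a log axis, ordered by the shLuc mean. Open circles are the 2 shLuc libraries and filled squares the 2 shMyb libraries, and colour gives the role. Kif11 stands at the top near 64.8 and Kif12 at the bottom. Kif21b and Kif1c show filled squares well to the right of their open circles.

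Between the groups, 8 kinesin genes rose and 6 fell, while 18 were not called, so 14 of 32 passed (adjusted p below 0.05, edgeR). In the whole data set 62.2% of 12610 tested genes were called, 30.6% higher and 31.7% lower. The kinesins' share of 43.8% lay below that background. The 2 groups' CPM values did not overlap for 27 of the 32, beside 82.1% of all tested genes. The median size of the log2 fold change, whatever its sign, was 0.12 for tested kinesins and 0.24 for all tested genes. Many tested genes are weakly expressed, but above a mean of 20 CPM the same held, with 9 of 22 kinesins called beside 68.6% of all genes of that level. Under scaling by library totals alone the split was 14 higher and 4 lower, with the expression trend removed 9 and 4, and with the length and GC trends removed 9 and 8.

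**Figure D2:**
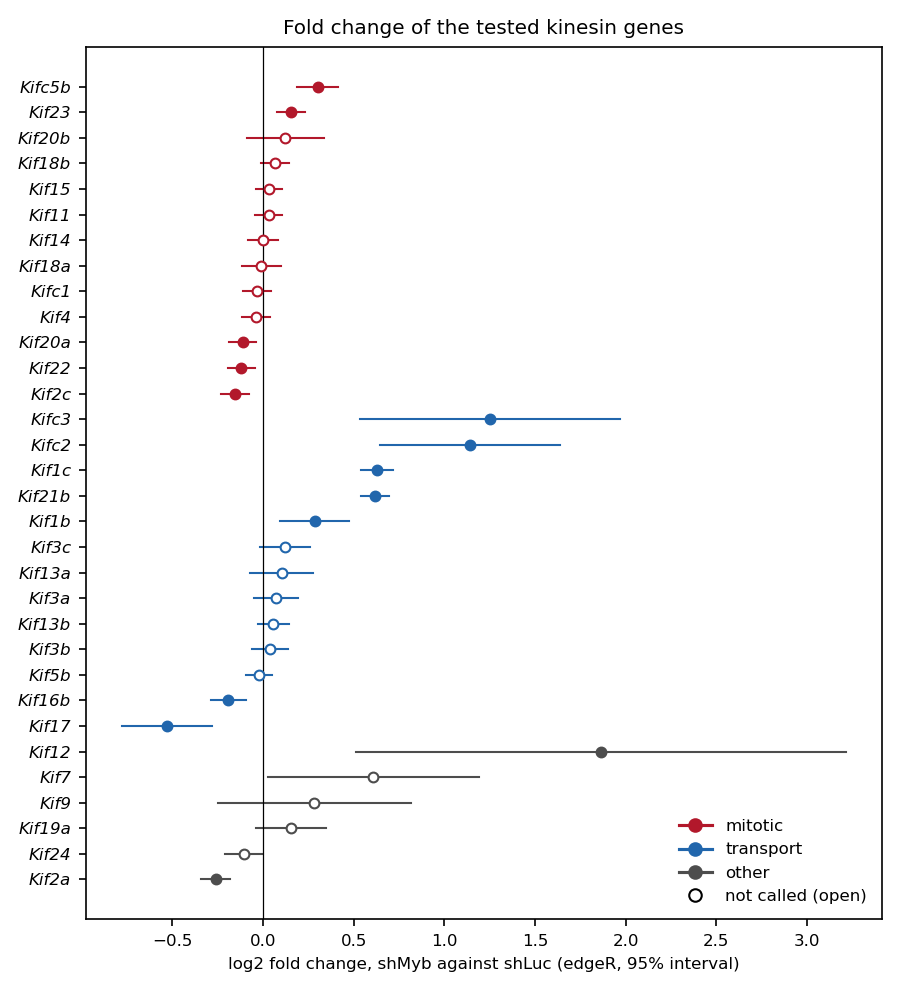
Log2 fold change (shMyb against shLuc, edgeR) of the 32 tested kinesin genes with 95% intervals, grouped by role. Filled points passed at an adjusted p below 0.05 and open points did not. Mitotic kinesins lie between -0.15 and 0.30, while transport kinesins range from -0.53 for Kif17 to a 2.38-fold rise for Kifc3.

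Mitotic kinesins as a group stood almost level. Their summed CPM was 2034 and 2035 in shLuc and 2041 and 2038 in shMyb, and the median log2 fold change over the 13 tested members was 0.00074, beside 0.0048 over all tested genes. Of these 13, 2 rose (Kif23 and Kifc5b), 3 fell (Kif2c, Kif20a and Kif22) and 8 did not pass. The share called was 38.5%, beside 62.2% of all tested genes and 68.6% of those above 20 CPM, where all 13 lie. With library totals 5 were higher and 1 lower, and with the trend with expression level removed 4 were higher and 1 lower. The balance within the group therefore follows the scaling. Kif2a, a motor of spindle poles grouped as other (-0.26), and the kinetochore kinesin Cenpe, outside the rule (0.17), are not in this group.

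The promoters of mitotic kinesins are shown because most of those on hand hold a motif that was found in 1 transport window. A known cell cycle promoter element, the cell cycle genes homology region, has the core TTTGAA, and the MuvB complex with its partners binds it. RefSeq promoter windows (GRCm38.p6, 250 bases before to 50 after the start) were on hand for 33 of the 42 members. There were 37 windows, as Kif1a, Kif1b, Kif2a and Kif9 had 2 each. No window was on hand for the mitotic gene Kif20a, nor for the transport genes Kif13b, Kif21b, Kif5a, Kif5b, Kifc2 and Kifc3. Kif19a and Kif4-ps had none either. TTTGAA was found on either strand in 11 of 13 windows of mitotic kinesins, in 1 of 13 of transport kinesins, in 2 of 11 of other kinesins and in 17.9% of 32851 windows in all. CCAAT (either strand), the core bound by NF-Y, was found in 9, 4 and 4 of those windows and in 37.4% of all. The 1 transport window with TTTGAA was of Kif1a, from a start 19471 bases inside the GENCODE gene. Both Kif1b windows, which overlap, are among the 4 transport windows with CCAAT. The related core TTCGAA was found in 0 of 13, 0 of 13 and 1 of 11 windows and in 1.56% of all. The MYB core AACTG was in 4 of 13 mitotic, 5 of 13 transport and 5 of 11 other windows (44.8% of all), and AACGG in 4, 2 and 5 (17.4% of all). The E2F motif TTCGCGC was in 0, 1 and 0 windows (1.59% of all), and TTTCCCGC was in none of the kinesin windows (1.07% of all). Each motif was counted on its own, and matches of different motifs may overlap. In the following windows, from 110 bases before the start to 25 bases from it, capitals mark TTTGAA or CCAAT on either strand.
Kif11 (chr19:37376272-37376406, plus strand): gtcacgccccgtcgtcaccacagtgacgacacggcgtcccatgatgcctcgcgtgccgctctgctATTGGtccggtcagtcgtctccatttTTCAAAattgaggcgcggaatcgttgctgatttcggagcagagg
Kif15 (chr9:122950971-122951105, plus strand): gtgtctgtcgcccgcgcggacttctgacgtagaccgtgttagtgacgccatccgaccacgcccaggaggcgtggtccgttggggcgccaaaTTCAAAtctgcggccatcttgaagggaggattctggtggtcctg
Kif18b (chr11:102925100-102925234, minus strand): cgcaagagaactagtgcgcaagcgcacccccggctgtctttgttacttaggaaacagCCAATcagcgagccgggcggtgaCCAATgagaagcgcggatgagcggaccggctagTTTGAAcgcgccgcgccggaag
Kif20b (chr19:34922248-34922382, plus strand): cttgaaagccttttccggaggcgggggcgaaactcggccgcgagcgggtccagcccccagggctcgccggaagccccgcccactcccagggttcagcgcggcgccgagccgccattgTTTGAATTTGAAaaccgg
Kif22 (chr7:127042396-127042530, minus strand): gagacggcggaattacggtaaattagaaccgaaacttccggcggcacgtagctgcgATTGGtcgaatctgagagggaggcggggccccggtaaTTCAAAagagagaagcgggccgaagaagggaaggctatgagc
Kif23 (chr9:61946775-61946909, minus strand): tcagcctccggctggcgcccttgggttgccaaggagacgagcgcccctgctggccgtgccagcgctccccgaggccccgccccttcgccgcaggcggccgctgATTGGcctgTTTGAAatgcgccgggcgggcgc
Kif18a (chr2:109280628-109280762, plus strand): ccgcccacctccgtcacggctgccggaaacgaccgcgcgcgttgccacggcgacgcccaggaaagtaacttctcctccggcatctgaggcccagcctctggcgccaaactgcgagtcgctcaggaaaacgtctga
Kif1c (chr11:70700438-70700572, plus strand): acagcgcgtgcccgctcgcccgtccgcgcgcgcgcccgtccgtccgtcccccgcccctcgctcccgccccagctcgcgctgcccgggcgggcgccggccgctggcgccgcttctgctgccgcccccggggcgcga

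Counted from 0 at the start, the match of TTTGAA nearest to it lay at -19 in Kif11 and Kif15, at -17 in Kif22, at 2 in Kif23, at 3 in Kif18b, and at 7 and again at 13 in Kif20b. Kif15 held another at -234 and Kif22 at -215, outside the stretches shown. Kif18a, a mitotic kinesin, and Kif1c, a transport kinesin that rose, are given for contrast and hold neither marked motif in these stretches. Kif11, Kif15, Kif18b and Kif20b did not pass the test, Kif22 fell and Kif23 rose, so members with the element at the start went in different ways. In Kif2c the element lay at -103 and in Kif14 at -228, from RefSeq starts that lie 3867 and 1505 bases inside the GENCODE gene. A match of letters is a description and not a measured binding site.

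Among the mitotic motors that fell, Kif2c (chromosome 4, 117159639 to 117182639, minus strand), which depolymerises microtubules at centromeres, was at 98.7 and 98.2 (shLuc) and 89.2 and 87.8 CPM (shMyb). Both shMyb libraries lay below both shLuc libraries. The log2 fold change was -0.15 (SE 0.04, edgeR adjusted p = 0.0010), and it was -0.09 with library totals.
Kif22, which binds DNA and pushes chromosome arms outwards, was at 218 and 219 CPM under shLuc and 203 and 199 CPM under shMyb (-0.12, SE 0.04, edgeR adjusted p = 0.0051). Kif20a, needed for late cytokinesis, was at 216 and 222 CPM with shLuc, against 205 and 201 CPM with shMyb (-0.11, SE 0.04, edgeR adjusted p = 0.0089). For both genes the groups were apart, but the differences were small beside the level. With library totals the values were -0.06 and -0.05, with the expression trend removed they were -0.07 and -0.06, and neither was called under those settings. The Kif20a call also ended without shLuc replicate 2 (-0.10, adjusted p = 0.0688). Kif20a shares 1271 exon bases with Cdc23 on the opposite strand, which fell by 0.13 on the log2 scale (-0.07 and not called with library totals), and the part of those reads in the Kif20a value was not tested.

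Kif23, the motor subunit of the centralspindlin complex at the spindle midzone, was at 154 and 152 (shLuc) and 175 and 166 CPM (shMyb). The shMyb libraries were both higher, with a log2 fold change of 0.15 (SE 0.04, edgeR adjusted p = 9.5e-04). Its partner in that complex, Racgap1, was at 239 and 242 CPM under shLuc and 226 and 213 CPM under shMyb, and fell by 0.13 (edgeR adjusted p = 0.0035). The Racgap1 call ended under library totals (-0.07), under removal of either trend (-0.08 each) and when shMyb replicate 2 was left out (-0.09). The 2 subunits of 1 complex therefore had calls in opposite directions, although the difference between them was not itself tested.

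Kifc5b was at 29.4 and 27.7 CPM with shLuc, against 33.7 and 36.6 CPM with shMyb, a log2 fold change of 0.30 (SE 0.05, edgeR adjusted p = 4.3e-05). Its near copy Kifc1, which bundles microtubules at spindle poles, was at 109 and 112 (shLuc) and 107 and 109 CPM (shMyb) and did not pass (-0.03, adjusted p = 0.479). Of the stretches of 50 bases in Kifc1 transcripts, 38.6% also occur in Kifc5b. How reads were divided between these genes is not given in the sources used here, so both levels are uncertain.

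The other 8 mitotic genes, Kifc1 among them, did not pass, with log2 fold changes from -0.04 (Kif4) to 0.12 (Kif20b). Kif11 was at 485 and 481 CPM under shLuc and 499 and 487 CPM under shMyb. Its 95% interval ran from -0.04 to 0.10 on the log2 scale. Kif15, which backs up Kif11 at the spindle, was at 0.03 (interval -0.04 to 0.11), and Kif4, a chromosome and midzone motor, at -0.04 (-0.11 to 0.04). Kif14, a cytokinesis motor, was at 0.00074 (-0.08 to 0.08), and the paired length regulators Kif18a and Kif18b were at -0.01 (-0.12 to 0.10) and 0.07 (-0.01 to 0.14). For these 6 genes the intervals given leave out changes of 1.2-fold in either direction. Some alternatives did call members of this group. Kif11 was called higher with library totals (0.09) and with either trend removed (0.13 each), Kif15 with library totals (0.10) and with the length and GC trends removed (0.13), and Kif18b with library totals (0.13) and with the expression trend removed (0.11). Kifc1 was called lower with the length and GC trends removed (-0.15, edgeR adjusted p = 0.0014). Kif20b had the widest spread in shMyb, at 143 and 134 CPM with shLuc, against 139 and 162 CPM with shMyb. Kif20b was called higher without shLuc replicate 1 (0.15), without shMyb replicate 1 (0.22), with no filter on low counts (0.11) and with the replicate block (0.12, edgeR adjusted p = 0.0322).

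Transport kinesins spanned a wider range of fold changes. Of 13 tested, 5 rose (Kif21b, Kif1c, Kif1b, Kifc2 and Kifc3), 2 fell (Kif17 and Kif16b) and 6 did not pass. The share called was 53.8%, beside 62.2% of all tested genes (30.6% higher and 31.7% lower). The median log2 fold change was 0.10. Summed over the 17 members, their CPM was 758 and 744 in shLuc and 859 and 873 in shMyb. The difference in the sum lay in Kif21b (mean 174 to 267 CPM) and Kif1c (mean 45.2 to 69.9 CPM). Changes of the other members nearly cancelled out. A log2 fold change above 0.3 in size was seen in 5 of these 13 (38.5%), in 1 of 13 mitotic kinesins and in 40.6% of all tested genes, so transport kinesins resembled the background in this respect. The transport members are less abundant (median 23.8 CPM against 141 for the mitotic members). Above 20 CPM 2 of 7 rose and 1 fell, beside 68.6% called among all genes of that level.

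Kif21b (chromosome 1, 136131389 to 136177998, plus strand), a motor that limits microtubule growth and is known from neurons and lymphocytes, was at 179 and 169 (shLuc) and 262 and 272 CPM (shMyb). The shMyb libraries stood far above the spread within either group. The rise was 1.54-fold (log2 fold change 0.62, SE 0.04, edgeR adjusted p = 5.5e-13). With the trends with transcript length and GC content removed it was 0.39, still called.
Kif1c (chromosome 11, 70700548 to 70731964, plus strand), a fast vesicle motor, was at 44.6 and 45.8 CPM under shLuc and 69.2 and 70.6 CPM under shMyb. Again the groups were far apart, and the rise was 1.55-fold (0.63, SE 0.04, edgeR adjusted p = 4.2e-12). Under the alternatives tried, Kif1c stayed called and between 0.49 and 0.69.

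Kif1b, a motor of mitochondria and synaptic vesicle precursors, was at 8.91 and 7.71 CPM with shLuc, against 9.83 and 10.4 CPM with shMyb. Its log2 fold change was 0.28 (SE 0.09, edgeR adjusted p = 0.0099). That call ended with DESeq2 (0.27), when shLuc replicate 2 (0.17) or shMyb replicate 2 (0.24) was left out and with the length and GC trends removed (0.21).
The minus-end directed motors Kifc2 and Kifc3 were rare. Kifc2 had 40 and 40 counts in shLuc and 73 and 89 in shMyb, or 1.00, 0.918, 1.87 and 2.37 CPM (log2 fold change 1.14, SE 0.24, edgeR adjusted p = 2.3e-04). Kifc3 had 17 and 14 counts in shLuc and 35 and 33 in shMyb (2.38-fold, log2 SE 0.35, edgeR adjusted p = 0.0031), a call that ended with DESeq2 (adjusted p = 0.064) and with the expression trend removed (0.75, adjusted p = 0.0686).
Both Kifc genes were higher in each shMyb library than in either shLuc library. Kifc2 shares 163 exon bases with Cyhr1 on the opposite strand, which rose by 0.17 on the log2 scale (0.10 with the length and GC trends removed). The share of reads from overlapping genes in the Kifc2 and Kifc3 values was not tested.

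Kif17, a motor of cilia and of neuronal cargo, was at 8.53 and 8.10 (shLuc) and 4.90 and 6.63 CPM (shMyb). The shMyb libraries differed from each other, but both were lower than shLuc, and Kif17 fell by 0.53 on the log2 scale (SE 0.12, edgeR adjusted p = 6.3e-04). Without shMyb replicate 1 the value was -0.33 (adjusted p = 0.0182). Kif17 shares 74 exon bases with Sh2d5 on the same strand, and Sh2d5 went from 57.8 and 56.4 CPM to 31.7 and 34.8 CPM (-0.78). The part of Sh2d5 reads in the Kif17 value was not tested.
Kif16b, which carries early endosomes, was at 47.6 and 47.3 CPM under shLuc and 42.5 and 40.6 CPM under shMyb, with no overlap. It fell by 0.19 (SE 0.05, edgeR adjusted p = 8.6e-04).

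The remaining 6 transport genes lay between -0.02 and 0.12. Kif5b was at 299.5 and 301 CPM with shLuc, against 294 and 298 CPM with shMyb (interval -0.10 to 0.05 on the log2 scale). Kif3a, Kif3b and Kif3c encode motor subunits of heterotrimeric kinesins, which build cilia and carry vesicles. These 3 genes were at 0.07 (interval -0.05 to 0.19), 0.04 (-0.06 to 0.14) and 0.12 (-0.02 to 0.26). Kif13a and Kif13b, endosome and membrane cargo motors, were at 0.10 (-0.07 to 0.28) and 0.06 (-0.03 to 0.14). Some alternatives called members of this group too. Kif13b was called higher with library totals and with the expression trend removed, and Kif3c with library totals.

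**Figure D3:**
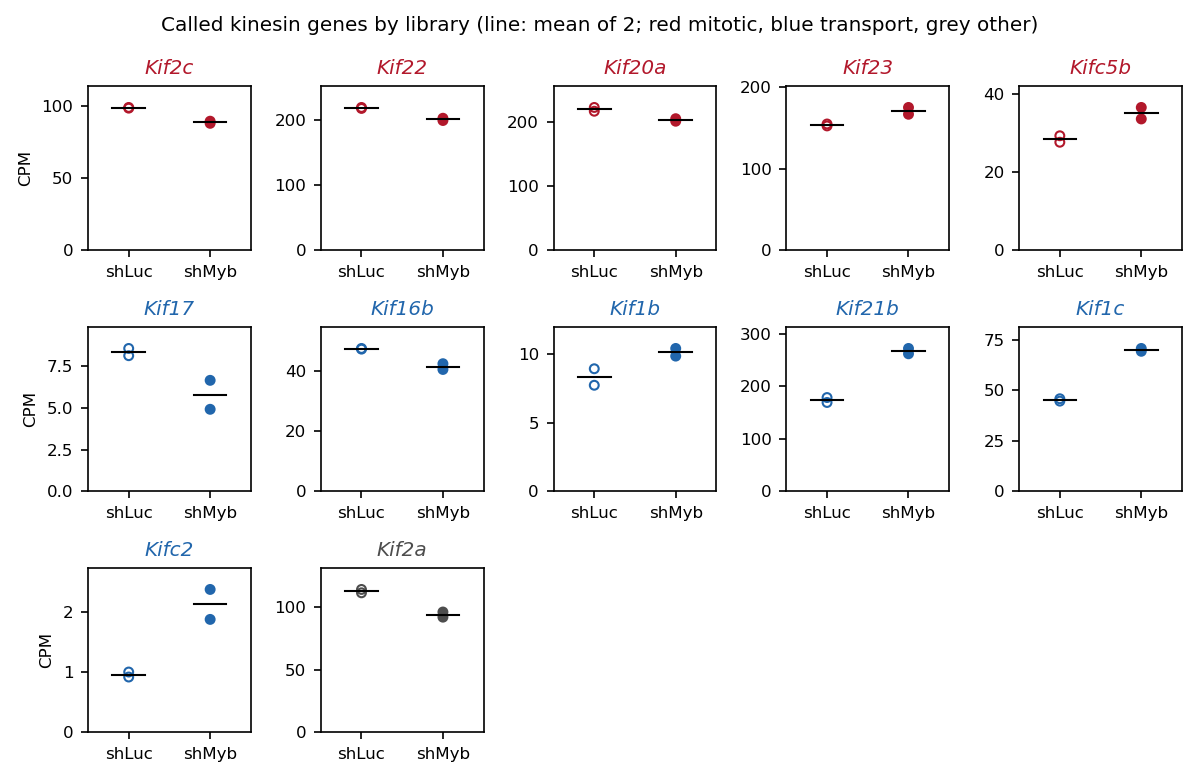
CPM in each library for the 12 called kinesin genes whose mean reaches 1 CPM. Open circles are shLuc, filled circles shMyb, lines the mean of 2 libraries, and every axis starts at 0. The mitotic genes (red) differ by small steps, such as Kif2c from 98.7 and 98.2 to 89.2 and 87.8 CPM, while Kif21b and Kif1c (blue) differ by about 1.54 and 1.55-fold.

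Among the 6 tested other kinesins, Kif2a fell, Kif12 rose and 4 did not pass (33.3% called, beside 62.2% of all tested genes). Kif2a, a microtubule depolymerase of spindle poles and of resting cells, was at 111 and 114 (shLuc) and 96.1 and 92.0 CPM (shMyb), with a clear gap between the groups (-0.26, SE 0.04, edgeR adjusted p = 2.2e-06). It was at -0.17 with the length and GC trends removed. Kif2a shares 1229 exon bases with Dimt1 on the opposite strand, which was at 24.3 ± 0.951 CPM in shLuc and 22.5 ± 1.33 in shMyb (SD, n = 2; edgeR log2 fold change -0.11, adjusted p = 0.122), and the part of those reads was not tested. Its close relative Kif2c fell as well.
Kif12 had 6 and 1 counts in shLuc and 11 and 13 in shMyb (1.86, SE 0.66, edgeR adjusted p = 0.0163). The Kif12 call ended when shLuc replicate 2 (1.04) or shMyb replicate 2 (1.71) was left out, with DESeq2 and with the expression trend removed (1.17), and leaving out shLuc replicate 1 gave 3.58. Kif24, a centriole kinesin that holds back cilia, was at 40.6 and 38.7 CPM under shLuc and 37.6 and 35.9 CPM under shMyb, lower in both but not called (-0.11, adjusted p = 0.0641). Kif24 was called lower when shLuc replicate 2 or shMyb replicate 1 was left out (both -0.15), with no filter (-0.12) and with the length and GC trends removed (-0.14). The ciliary genes Kif19a (0.15), Kif9 (0.28) and Kif7, a Hedgehog pathway component (0.61, adjusted p = 0.0639), did not pass, and Kif7 and Kif9 were at 0.734 to 1.33 CPM.

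Adaptors link kinesins to cargo, and light chains are part of the conventional kinesin. Of 20 tested adaptor and light chain genes 12 rose and 5 fell (85% called, beside 62.2% of all tested genes), with a median log2 fold change of 0.19. With the length and GC trends removed 7 rose and 4 fell, and with library totals 14 rose and 3 fell. Kifap3, the non-motor subunit of the Kif3 heterotrimer, was at 27.8 and 27.2 CPM with shLuc, against 13.4 and 13.7 CPM with shMyb. It fell by 1.02 on the log2 scale (SE 0.06, edgeR adjusted p = 4.9e-13), while Kif3a, Kif3b and Kif3c did not pass the test.
The kinesin light chains bind the tail of the conventional kinesin heavy chains such as Kif5b. Klc1 rose from 104 ± 3.33 to 133 ± 5.44 CPM (SD, n = 2 each; 0.36), Klc2 from 10.8 and 11.2 CPM to 17.6 ± 0.589 CPM (0.68), Klc3 from 1.99 ± 0.342 to 3.67 ± 0.107 CPM (0.89) and Klc4 from 17.6 ± 1.04 to 23.6 ± 1.39 CPM (0.42). All 4 light chain genes kept their calls in each of the 17 alternatives, although Klc4 was at 0.26 with the length and GC trends removed. Kif5b itself had an interval of -0.10 to 0.05. Arl8b, the small GTPase that couples lysosomes to kinesin, fell from 127 ± 1.84 to 96.8 ± 4.59 CPM (-0.39).

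Of 30 tested partners and regulators of mitotic kinesins 17 fell, 4 rose and 9 did not pass. The 70% called were near the background of 62.2% of all tested genes and 68.6% of those above 20 CPM, where all 30 lie and where 3068 of 7327 genes fell. The list had a median log2 fold change of -0.10, beside 0.00074 for the mitotic kinesins themselves. With library totals 9 fell and 6 rose, with the expression trend removed 9 fell and 8 rose, and without shMyb replicate 2 10 fell and 3 rose. The checkpoint gene Mad2l1 fell by 0.30, the cyclin gene Ccnb1 by 0.33 and the importin gene Kpna2 by 0.29, whereas Cit, the citron kinase of cytokinesis, rose by 0.33. With the length and GC trends removed Ccnb1 was at -0.21, Kpna2 at -0.18 and Cit at 0.15, all still called. Cenpe, a kinetochore kinesin whose symbol lies outside the rule, was at 211 and 203 (shLuc) and 218 and 246 CPM (shMyb) (0.17, SE 0.05, called by edgeR), and that call ended without shMyb replicate 2 (0.08).

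Dynein, the motor that walks the opposite way, and its activator dynactin had 5 genes higher and 8 lower of 27 tested (48.1% called, median -0.01), below the 62.2% called among all tested genes. With library totals 10 were higher and 5 lower, with the expression trend removed 9 and 7, with DESeq2 3 and 7, and without shLuc replicate 2 there were 2 and 6. The adaptor gene Hook1 fell from 55.8 ± 0.655 to 23.3 ± 0.332 CPM (-1.26), the light chain gene Dynll1 by 0.38 and the dynactin gene Actr10 by 0.22, while Dynll2 rose by 0.26. Actr10 was at -0.11 with the length and GC trends removed, still called.
Of 14 tubulin genes, which encode the track itself, 7 fell and 2 rose (64.3% called, median -0.15). That share was near the 62.2% of all tested genes, and without shMyb replicate 2 6 fell and 1 rose. The abundant genes Tuba1b (857 ± 16.2 to 656 ± 40.3 CPM, -0.38) and Tubb4b (626 ± 19.1 to 481 ± 22.6 CPM, -0.38) fell, as did Tuba4a and Tubb3 (-0.61 each). Tubulin genes are closely related in sequence, so their counts may be split between copies.

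**Figure D4:**
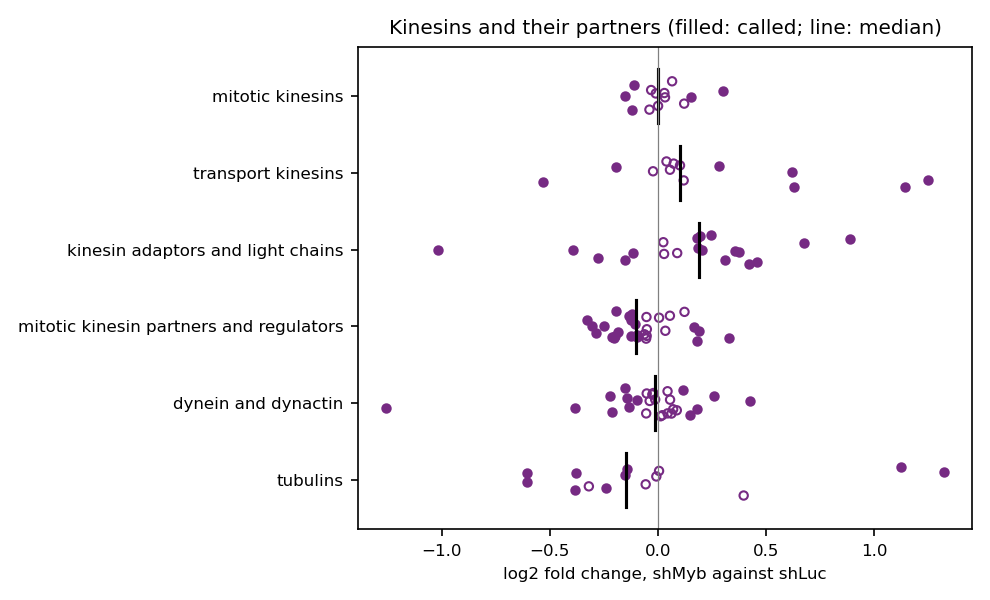
Log2 fold change (shMyb against shLuc) of tested mitotic and transport kinesins and of 4 lists of partner genes. Each point is a gene, filled where it passed at an adjusted p below 0.05, with vertical jitter, and the black line is the median. Mitotic kinesins cluster at 0 with a median of 0.00074, adaptors have a median of 0.19 and tubulins of -0.15.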

How the data were processed

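Each library had 1 deposited file of raw read counts per gene symbol. FastQC, STAR, HTSeq and DESeq2 and the build mm10 appear in the submitters' processing notes, without versions. For annotation and strand the sources used here give nothing, so reads of overlapping genes may not be separated. The test was that of edgeR 4.0.16 (R 4.3.3): filterByExpr (minimum count 10, 12610 of 16832 genes with a count), TMM scaling, glmQLFit with robust=TRUE and glmQLFTest of shMyb against shLuc (2 libraries each), with Benjamini-Hochberg adjustment over all tested genes and a threshold of 0.05. CPM uses TMM-scaled totals, and exon lengths and gene coordinates are from GENCODE M21 (GRCm38, also called mm10). Symbols matched 21751 genes by name and 1296 by an older symbol, and 373 did not match.

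In simulated counts over 12610 genes with 200 changed, the test recovered 20%, 82%, 66% and 86% of genes changed 1.1, 1.25, 1.5 and 2-fold, and 26.3%, 97.5%, 100% and 100% of those above 5 CPM. It called 8 of 12410 unchanged genes. The misses at 1.5-fold and 2-fold were genes of low count, so calls on rare kinesins may be less complete. The simulation changed far fewer genes than the 62.2% called in the data, and it took each gene's spread from the trend over all genes. Its rates therefore need not hold for the data.

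Members and lists were chosen with earlier results of these data known. All tested kinesins are named, and each partner list gives its 4 called genes of smallest p. Klc3, Klc4, Racgap1, Cenpe and the overlapping genes were added after their values were seen, and 1 overlapping gene is not reported here. Alternatives were RLE scaling, library totals, no filter, a filter of 1 CPM in 2 libraries, DESeq2 1.42.0, robust=FALSE, voom from limma 3.58.1, a replicate block, leaving out each library, removing trends with expression or with length and GC content (lengths were found for 99.2% of tested genes), an adjusted p below 0.01 and a test against 1.2-fold. Libraries of a group differed by more than counting noise (chi-square per degree of freedom 3.68 and 4.06).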

Additional observations from a re-analysis of the deposited data

How the results depend on the processing

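Over 32 kinesin genes and 17 alternatives, 469 values kept direction and side of the threshold, 24 lost a call, 24 gained one and 25 changed sign, all 25 uncalled in both. Against 1.2-fold, 5 kinesins were higher and 1 lower (mitotic 0 and 0 by edgeR, also at an unadjusted p under 0.05; transport 4 and 1; other 1 and 0), with 1893 and 1267 of all tested genes. With library totals 14 kinesins were higher, mitotic 5 and 1, other 2 higher, at medians of 0.063 (mitotic) and 0.16 (transport). DESeq2 gave 5 higher (transport 3, other 0, and 0 other at an unadjusted p under 0.05). With the expression trend removed, mitotic were 4 and 1 and other 0 higher, at a mitotic median of 0.047. With the length and GC trends removed, mitotic were 4 higher and other 2 lower, at medians of -0.023 and 0.057. With no filter, other were 2 lower and the mitotic median was -0.015. From 1 CPM in 2 libraries other were 0 higher by edgeR (1 at an unadjusted p under 0.05), as Kif12 left the test, with a mitotic median of 0.013. At an adjusted p below 0.01 other were 0 higher by edgeR (2 unadjusted under 0.05).

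Leaving out single libraries gave 6 to 10 kinesins higher and 6 to 7 lower (mitotic 2 to 3 and 2 to 3, transport 4 to 6 and 2 to 2, other 0 to 1 and 1 to 2), with 3083 to 3569 and 3505 to 3925 of all tested genes, and medians of -0.00026 to 0.014 (mitotic) and 0.085 to 0.11 (transport). Kif21a was tested and called higher only without shMyb replicate 1. With the replicate block 9 kinesins were higher and 6 lower, Kif20b (0.12) being the added call. Same-numbered libraries deviated in opposite directions (correlation -0.19 across genes, and by construction 0.19 for the crossed pairing). With 2 libraries per group this cannot decide whether the numbers pair the samples. A crossed block, chosen after seeing the data, gave 11 and 7 (mitotic 4 higher, other 2 and 2).

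Library totals moved the median log2 fold change of all tested genes from 0.0048 to 0.067 (4667 genes higher, 3103 lower), a shift that this scaling gives to all genes alike and that accounts for the sign changes under it. For the other sign changes the cause was not tested. With length and GC removed, Kif13a was at -0.0030, Kif13b -0.085, Kif14 -0.023, Kif18a 0.059, Kif18b -0.034, Kif19a -0.070, Kif5b 0.057 and Dimt1 0.012. With library totals, Kif18a was at 0.053, Kif4 0.023, Kif5b 0.040 and Kifc1 0.031. With the expression trend removed, Kif18a was at 0.025, Kif4 0.0055, Kif5b 0.044, Kif9 -0.10 and Kifc1 0.016. Kif14 was at -0.015 with no filter and -0.011 with DESeq2, and Kif18a at 0.0021 from 1 CPM. Leaving out single libraries gave -0.0036 to 0.083 for Kif13b, -0.043 to 0.023 for Kif14, -0.12 to 0.075 for Kif18a, -0.0020 to 0.12 for Kif3a and -0.0090 to 0.079 for Kif3b.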
